A study of Schizosaccharomyces pombe
Saccharomyces cerevisiae with 16 samples.

Results

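HRP1 and 8 genes that work with it in RNA 3′-end formation and transcription termination were followed in budding yeast (Saccharomyces cerevisiae) after degradation of a Mediator subunit. The 9 genes are HRP1 (YOL123W), NRD1 (YNL251C), NAB3 (YPL190C), SEN1 (YLR430W), PCF11 (YDR228C), RNA14 (YMR061W), RNA15 (YGL044C), CLP1 (YOR250C) and NAB2 (YGL122C). They were chosen by systematic ID because HRP1 total RNA was high after depletion. All 9 were among the 6859 genes of the newly synthesized RNA table and the 6805 genes of the total RNA table. All 9 also passed the filter on low counts, which left 6072 genes of newly synthesized RNA and 5625 of total RNA. The deposited descriptions place 8 of the 9 genes in mRNA 3′-end formation or transcription termination. NAB2 is described as a nuclear poly(A) RNA-binding protein of mRNA export and poly(A) tail length control, not as a termination factor.

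Mediator is a large coactivator that relays signals of DNA-bound activators to RNA polymerase II. Its core holds the architectural subunits Med17 and Med14. The MED17-IAA7 and MED14-IAA7 strains carried an auxin-inducible IAA7 degron on Med17 or on Med14, and both expressed OsTIR1, a rice F-box protein, from the GPD1 promoter. Auxin (3-indole acetic acid) lets OsTIR1 send the tagged protein to the proteasome. Cultures of each strain were kept for 30 min with 500 µM auxin or with DMSO, its carrier. For a further 6 min they were given 4-thiouracil (4tU, 5 mM), which marks RNA made while it is present. All groups shared the MATalpha background with ade2, his3, leu2, lys2, met15, trp1 and ura3 mutations, and each strain is given as 1 genotype. S. pombe cells were mixed in at 3 parts to 1 before extraction. The 8 groups are Med17 auxin, Med17 DMSO, Med14 auxin and Med14 DMSO, each as newly synthesized RNA and as total RNA, with 2 biological replicates. The labelled fraction was purified from total RNA extracts, so newly synthesized and total RNA are not separate cultures. The source labels of the newly synthesized Med14 libraries of replicate 2, auxin and DMSO, end in an added (2). Whether these libraries were made apart from the others is not stated in those labels. For Med17 samples the strain and source labels say Med17 but the genotype label lists MED14-3V5-IAA7, and the strain and source labels were followed.

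The 16 libraries held 3.83 to 14 M raw counts each where the labelled fraction was sequenced, and 3.3 to 8.84 M where total RNA was. Among markers of the stated background, 4 of 4 genes specific to MATalpha cells were present in every library, at a summed 2526 to 65623 normalized counts of newly synthesized RNA and 3289 to 12279 of total RNA. The 5 of 5 genes specific to MATa cells summed to 91.4 to 694 and to 57.1 to 123. The deleted genes summed to at most 5.46 normalized counts of newly synthesized RNA, where 3 of the 5 were looked up, and 4.49 of total RNA, where all 5 were.

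Yeast mRNA 3′ ends are made by cleavage factor I together with the cleavage and polyadenylation factor, CPF. Cleavage factor I consists of Hrp1, an hnRNP-type protein that binds UA-rich signals, and of cleavage factor IA, which holds Rna14, Rna15, Pcf11 and Clp1. A second pathway, built from the RNA-binding proteins Nrd1 and Nab3 and the helicase Sen1, ends short non-coding transcripts and hands them to the nuclear exosome. HRP1, NRD1 and NAB2 belong to the genes of this pathway that are known to be controlled through premature ending or processing of their own transcripts.

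HRP1 total RNA stood far above its DMSO level after depletion of either subunit. The gene lies on chromosome XV at 87844 to 89448 (sacCer3, plus strand, 1605 bases of coding length). Its total RNA was 5002 and 4194 normalized counts in Med17 auxin libraries, against 1082 and 820 in Med17 DMSO libraries. It was 4092 and 4292 in Med14 auxin libraries, against 1377 and 1500 in Med14 DMSO libraries. The auxin and DMSO libraries did not overlap in either strain, and the 4 auxin libraries lay together. The means were 4598 ± 571 and 951 ± 185 in the Med17 strain, and 4192 ± 142 and 1439 ± 87.6 in the Med14 strain (SD, n = 2 each). The level was thus 4.84 times the DMSO level in the Med17 strain (log2 fold change 2.28, SE 0.151) and 2.91 times in the Med14 strain (1.54, SE 0.147). Of the 5625 genes tested, 57 had a larger log2 fold change with Med17 depletion and 42 with Med14 depletion. These total RNA changes chose the gene, so they are given as a description without a test.

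Newly synthesized HRP1 RNA stayed nearer to its DMSO level, and its direction differed between the strains on the authors' scale. It was 4153 and 3606 normalized counts in Med17 auxin libraries, against 3302 and 2837 in Med17 DMSO libraries. It was 4806 and 5535 in Med14 auxin libraries, against 5927 and 8548 in Med14 DMSO libraries. In the Med17 strain the auxin libraries were the higher ones and in the Med14 strain the lower ones, without overlap. The log2 fold change was 0.34 in the Med17 strain (SE 0.171, edgeR quasi-likelihood test, Benjamini-Hochberg adjusted p = 0.0656 over all genes, not called at 0.05). With Med14 depletion HRP1 fell by 0.49 on the log2 scale (SE 0.17, adjusted p = 0.0114), which is 0.714 times the DMSO level.

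The newly synthesized values rest on the authors' scaling constants. The raw counts of HRP1 were 8297 and 8427 in Med14 auxin libraries, against 3301 and 6762 in Med14 DMSO libraries. TMM, a scaling that assumes most genes keep their level, gave log2 fold changes of 3.02 with Med17 depletion and 1.41 with Med14 depletion. It turned the direction in the Med14 strain. The Med14 call was lost without Med14 auxin replicate 1 (-0.39, edgeR adjusted p = 0.0774) or Med14 DMSO replicate 2 (-0.2, adjusted p = 0.295). In the Med17 strain HRP1 was called higher without Med17 auxin replicate 2 (0.44, adjusted p = 0.0484), without Med14 DMSO replicate 1 (adjusted p = 0.0378) or without Med14 DMSO replicate 2 (adjusted p = 0.0371).

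The 8 group means of HRP1 fell into a clear order. For newly synthesized RNA the order of groups was Med14 DMSO, Med14 auxin, Med17 auxin and Med17 DMSO, with no overlap between neighbouring groups. For total RNA the Med17 auxin and Med14 auxin groups overlapped, and Med14 DMSO and then Med17 DMSO followed without overlap. The Med17 DMSO group was therefore the lowest for both kinds of RNA. In bulk RNA, fewer cells and less RNA per cell cannot be told apart.

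**Figure D1:**
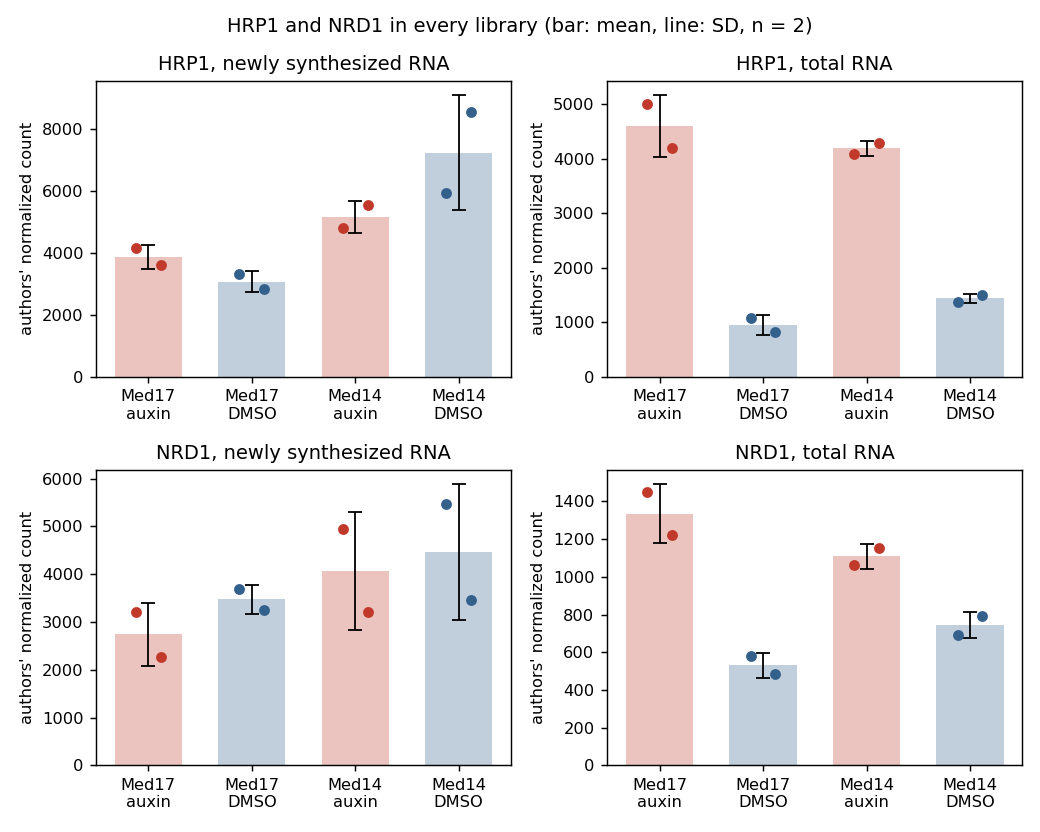
Authors' normalized counts (vertical axis) of HRP1 (top) and NRD1 (bottom) in newly synthesized RNA (left) and total RNA (right) for the 4 groups of each kind of RNA. Points are libraries, bars are means and lines are SD (n = 2). HRP1 total RNA reached 5002 and 4194 in Med17 auxin libraries, against 1082 and 820 in Med17 DMSO libraries.

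Against this, the typical gene lost RNA. The median log2 fold change over all genes tested was -2.71 with Med17 depletion and -1.86 with Med14 depletion for newly synthesized RNA. For total RNA it was -1.38 and -0.76 (Med17 strain, Med14 strain). All 9 genes lay above the all-gene median for newly synthesized RNA in both strains, and 7 of 9 did so for total RNA, CLP1 and NAB2 being the exceptions. In newly synthesized RNA 7 of the 9 fell in the Med17 strain, where 95% of all genes were called lower, and 0 of 9 rose (1.7% of all genes). In the Med14 strain 8 of 9 fell, where 94.2% of all genes were called lower, and 0 of 9 rose (0.56% of all genes). TMM sets the all-gene median near 0 (-0.03 in the Med17 strain, 0.034 in the Med14 strain). With all 9 genes above the median, TMM turned these counts round. It called 0 lower and 6 higher in the Med17 strain, and 0 lower and 8 higher in the Med14 strain. Its values for these genes are thus close to their distance from the median gene, not a separate check. The median over the 9 genes was -1.5 with Med17 depletion and -1.12 with Med14 depletion (1.18 and 0.77 with TMM). The falls of newly synthesized RNA given for these 9 genes are falls on the authors' scale, and each is smaller than that of the median gene.

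**Figure D2:**
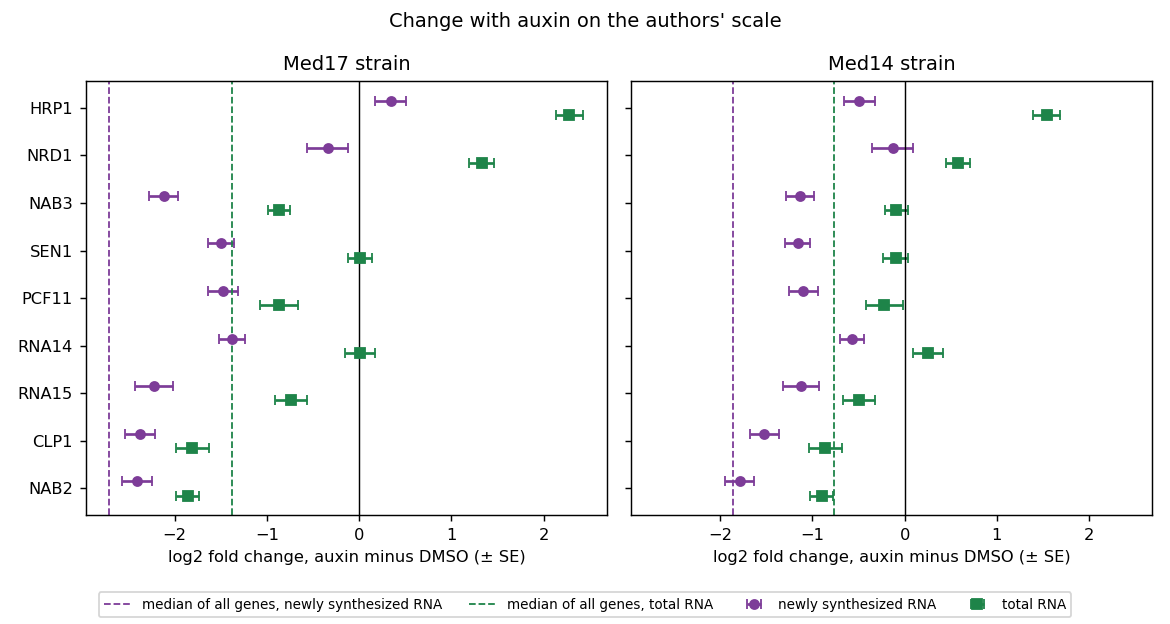
Log2 fold changes, auxin minus DMSO, on the authors' scale (horizontal axis, lines are SE) of the 9 genes in the Med17 strain (left) and the Med14 strain (right). Circles are newly synthesized RNA, squares are total RNA, and dashed lines are the medians of all genes tested. HRP1 and NRD1 stand to the right, at 2.28 and 1.33 for total RNA in the Med17 strain, and NAB2 at -1.86. With TMM the newly synthesized values of all 9 genes are positive in both strains.

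NRD1 was the member nearest to HRP1. It encodes the RNA-binding subunit of the Nrd1 complex that contacts the C-terminal domain of RNA polymerase II, and lies on chromosome XIV at 172588 to 174315 (minus strand). NRD1 total RNA was 1447 and 1224 normalized counts in Med17 auxin libraries, against 579 and 484 in Med17 DMSO libraries. It was 1063 and 1155 in Med14 auxin libraries, against 693 and 792 in Med14 DMSO libraries. No auxin library overlapped a DMSO library of its strain. The level was 2.52 times the DMSO level in the Med17 strain (log2 fold change 1.33, SE 0.135) and 1.49 times in the Med14 strain (0.58, SE 0.133), with no test because the set was chosen on this contrast.

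No change of newly synthesized NRD1 RNA was called in either strain. It was 3207 and 2274 normalized counts in Med17 auxin libraries, against 3688 and 3258 in Med17 DMSO libraries. It was 4943 and 3203 in Med14 auxin libraries, against 5476 and 3462 in Med14 DMSO libraries. The groups overlapped in the Med14 strain and did not in the Med17 strain. The log2 fold change was -0.34 in the Med17 strain (SE 0.221, edgeR adjusted p = 0.143) and -0.13 in the Med14 strain (SE 0.22, adjusted p = 0.562). NRD1 was called lower without Med17 auxin replicate 1 in the Med17 strain (-0.61, adjusted p = 0.042) and without Med14 auxin replicate 1 in the Med14 strain (-0.48, adjusted p = 0.0349). TMM gave 2.33 and 1.76 in the Med17 and Med14 strains. With the replicate number as a block, NRD1 was called lower in the Med17 strain, though the numbers are not shown to pair the libraries.

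The partners of NRD1 in its own complex did not share its rise of total RNA on the authors' scale. NAB3 (chromosome XVI, 185317 to 187725, minus strand) encodes the other RNA-binding subunit. Newly synthesized NAB3 RNA was 2176 and 1845 normalized counts in Med17 auxin libraries, against 9743 and 7735 in Med17 DMSO libraries. It was 3428 and 3405 in Med14 auxin libraries, against 7187 and 7774 in Med14 DMSO libraries. Every auxin library was below every DMSO library. NAB3 fell in the Med17 strain (-2.12, SE 0.156, edgeR adjusted p = 2.09e-10, but 0.56 with TMM) and in the Med14 strain (-1.13, SE 0.151, adjusted p = 1.07e-06, but 0.76 with TMM). NAB3 total RNA was 798 and 731 in Med17 auxin libraries, against 1467 and 1325 in Med17 DMSO libraries (log2 fold change -0.87, SE 0.122). It was 1025 and 1037 in Med14 auxin libraries, against 997 and 1195 in Med14 DMSO libraries (-0.089, SE 0.122), where the groups overlapped.

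SEN1 (chromosome XII, 993434 to 1000129, plus strand, the longest of the 9 at 6696 bases) encodes the helicase of the complex. Newly synthesized SEN1 RNA was 2543 and 2265 normalized counts in Med17 auxin libraries, against 6738 and 6839 in Med17 DMSO libraries. It was 3473 and 3574 in Med14 auxin libraries, against 7528 and 8216 in Med14 DMSO libraries. SEN1 fell in the Med17 strain (-1.5, SE 0.139, edgeR adjusted p = 5.69e-09, but 1.18 with TMM) and in the Med14 strain (-1.16, SE 0.137, adjusted p = 2.2e-07, but 0.73 with TMM). Its total RNA stayed within the spread of the libraries: 1161 and 983 in Med17 auxin libraries, against 1080 and 1053 in Med17 DMSO libraries. For Med14 it was 1063 and 1184 with auxin, against 1079 and 1325 with DMSO. The log2 fold changes of total RNA were 0.008 (SE 0.132) and -0.098 (SE 0.133) in the Med17 and Med14 strains, but 1.27 and 0.63 with TMM.

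The 4 genes of cleavage factor IA all fell in newly synthesized RNA on the authors' scale, by unequal amounts, and TMM gave positive values for all 4 in both strains. RNA14 (chromosome XIII, 392755 to 394788, plus strand) encodes the scaffold protein of the factor. It had 828 and 791 normalized counts in Med17 auxin libraries, against 2196 and 2028 in Med17 DMSO libraries. It had 1603 and 1750 in Med14 auxin libraries, against 2375 and 2602 in Med14 DMSO libraries. RNA14 fell in the Med17 strain (-1.38, SE 0.138, edgeR adjusted p = 1.7e-08, but 1.3 with TMM) and in the Med14 strain (-0.57, SE 0.135, adjusted p = 0.00061, but 1.32 with TMM). Its total RNA was 396 and 322 in Med17 auxin libraries, against 336 and 376 in Med17 DMSO libraries, and the log2 fold change was 0.0077 (SE 0.162). Med14 cells had 438 and 542 with auxin, against 351 and 469 with DMSO (0.25, SE 0.163). The libraries overlapped in both strains.

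PCF11 (chromosome IV, 921926 to 923806, minus strand) encodes the subunit that binds the C-terminal domain of RNA polymerase II. Newly synthesized PCF11 RNA was 582 and 494 normalized counts in Med17 auxin libraries, against 1519 and 1479 in Med17 DMSO libraries. It was 940 and 937 in Med14 auxin libraries, against 1702 and 2326 in Med14 DMSO libraries. PCF11 fell in both strains (-1.48, SE 0.161, edgeR adjusted p = 5.61e-08, but 1.2 with TMM, for Med17, and -1.1, SE 0.157, adjusted p = 2.31e-06, but 0.8 with TMM, for Med14). PCF11 total RNA was 147 and 129 in Med17 auxin libraries, against 278 and 231 in Med17 DMSO libraries (-0.87, SE 0.201). Med14 cells had 196 and 263 with auxin, against 215 and 318 with DMSO (-0.22, SE 0.201), with overlap.

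RNA15 (chromosome VII, 416146 to 417036, minus strand) encodes an RNA-binding subunit of the factor and CLP1 (chromosome XV, 800970 to 802307, minus strand) an ATP-binding one. Newly synthesized RNA15 RNA was 153 and 129 normalized counts in Med17 auxin libraries, against 707 and 605 in Med17 DMSO libraries. It was 374 and 344 in Med14 auxin libraries, against 923 and 645 in Med14 DMSO libraries. RNA15 fell in both strains (-2.22, SE 0.206, edgeR adjusted p = 6.06e-09, but 0.47 with TMM, for Med17, and -1.12, SE 0.195, adjusted p = 2.49e-05, but 0.77 with TMM, for Med14). Its total RNA was 86.5 and 83.6 in Med17 auxin libraries, against 157 and 130 in Med17 DMSO libraries (-0.74, SE 0.17), and 128 and 100 in Med14 auxin libraries, against 163 and 160 in Med14 DMSO libraries (-0.49, SE 0.173). Both strains had all auxin libraries below all DMSO libraries.

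CLP1 fell in both strains as well. Newly synthesized CLP1 RNA was 202 and 186 normalized counts in Med17 auxin libraries, against 1071 and 958 in Med17 DMSO libraries. It was 377 and 381 in Med14 auxin libraries, against 1041 and 1126 in Med14 DMSO libraries. The log2 fold change was -2.38 (SE 0.165, edgeR adjusted p = 9.29e-11, but 0.3 with TMM) in the Med17 strain and -1.52 (SE 0.158, adjusted p = 4.39e-08, but 0.38 with TMM) in the Med14 strain. CLP1 total RNA was 47.4 and 57.4 in Med17 auxin libraries, against 174 and 191 in Med17 DMSO libraries (-1.81, SE 0.176). Med14 cells had 94.3 and 72.3 with auxin, against 153 and 152 with DMSO (-0.86, SE 0.181). CLP1 had 52 to 284 raw counts in total RNA libraries and RNA15 72 to 193, the lowest ranges of the 9 genes.

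NAB2 (chromosome VII, 278946 to 280523, minus strand) lay at the other end from HRP1. Newly synthesized NAB2 RNA was 1334 and 978 normalized counts in Med17 auxin libraries, against 6551 and 5751 in Med17 DMSO libraries. It was 1678 and 1622 in Med14 auxin libraries, against 5476 and 5971 in Med14 DMSO libraries. NAB2 fell in the Med17 strain (log2 fold change -2.41, SE 0.162, edgeR adjusted p = 6.12e-11, but 0.26 with TMM) and with Med14 depletion (-1.79, SE 0.158, adjusted p = 5.27e-09, but 0.1 with TMM). NAB2 total RNA was 358 and 334 in Med17 auxin libraries, against 1349 and 1175 in Med17 DMSO libraries, a level 0.275 times that of DMSO (-1.86, SE 0.127). Values were 516 and 445 for Med14 with auxin, against 839 and 959 with DMSO, 0.535 times the DMSO level (-0.9, SE 0.127). For total RNA, NAB2 and CLP1 had the lowest log2 fold changes of the 9 genes in both strains, and TMM also gave them negative values (-0.6 and -0.56 with Med17 depletion, -0.18 and -0.15 with Med14 depletion).

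Whether the strains differed in their response to auxin was tested as the Med17 change minus the Med14 change in newly synthesized RNA. HRP1 was the only 1 of the 9 called higher, where 3.28% of all genes were. Its difference was 0.82 on the log2 scale (SE 0.241, edgeR adjusted p = 0.007), and 1.61 with TMM. The call was lost without Med14 DMSO replicate 2 (0.54, adjusted p = 0.0547), the library with the highest newly synthesized HRP1 value. The all-gene median of this difference was -0.82. The DMSO levels of HRP1 were unequal between the strains, and whether the difference in change comes from them was not tested. HRP1 averaged 3069 normalized counts in Med17 DMSO cells and 7237 in Med14 DMSO cells. With auxin it averaged 3880 and 5170 in the Med17 and Med14 strains, so the Med17 strain was still the lower one.

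In the other direction 5 of the 9 genes were called, where 59.6% of all genes were. RNA15 differed by -1.09 (SE 0.279, edgeR adjusted p = 0.00287), NAB3 by -0.99 (SE 0.212, adjusted p = 0.000789) and CLP1 by -0.87 (SE 0.223, adjusted p = 0.00301). RNA14 differed by -0.81 (SE 0.192, adjusted p = 0.00161) and NAB2 by -0.62 (SE 0.218, adjusted p = 0.0209). TMM called none of these 5, with values of -0.3, -0.2, -0.079, -0.022 and 0.16 in that order, so the difference in NAB2 turned sign. The NAB2 call was also lost without Med17 auxin replicate 2 (-0.41, adjusted p = 0.0961), Med17 DMSO replicate 1 (-0.52, adjusted p = 0.0837) or Med14 DMSO replicate 1 (-0.56, adjusted p = 0.0687). NRD1, SEN1 and PCF11 were not called, at -0.21 (SE 0.311, adjusted p = 0.565), -0.34 (SE 0.192, adjusted p = 0.134) and -0.38 (SE 0.222, adjusted p = 0.149). TMM called SEN1 higher (0.45, adjusted p = 0.0297), and PCF11 was called lower without Med14 DMSO replicate 2 (-0.62, adjusted p = 0.0181).

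The same difference in total RNA is a description only. HRP1 was at 0.73 (SE 0.205) and NRD1 at 0.76 (SE 0.188), SEN1 at 0.11 (SE 0.187), and RNA14 and RNA15 at -0.25 each (SE 0.23 and 0.243), but at 0.28 and 0.3 with TMM. PCF11 was at -0.65 (SE 0.284), NAB3 at -0.78 (SE 0.172), CLP1 at -0.95 (SE 0.255) and NAB2 at -0.96 (SE 0.178), beside an all-gene median of -0.54. HRP1 and NRD1 had the highest log2 fold changes of total RNA in both strains and also the largest Med17 minus Med14 values among the 9. That difference contains the same Med17 change on which HRP1 was chosen, so it adds no separate evidence.

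The strains already differed in HRP1 without auxin. Newly synthesized HRP1 RNA averaged 3069 ± 329 normalized counts in Med17 DMSO cells and 7237 ± 1854 in Med14 DMSO cells (SD, n = 2 each). The log2 difference was -1.24 (SE 0.173, edgeR adjusted p = 6.22e-05) and -1.05 with TMM, and HRP1 was called in every repeat that left out a library. HRP1 total RNA differed the same way, 951 ± 185 in Med17 DMSO cells and 1439 ± 87.6 in Med14 DMSO cells (-0.6, SE 0.146, no test, since these libraries entered the choice of the gene). Of the other genes, PCF11 was called lower in newly synthesized RNA (-0.43, SE 0.157, adjusted p = 0.0472). In all, 2 of 9 genes were called lower, where 24.1% of all genes were, and 0 of 9 higher, where 6.04% were.

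The PCF11 call did not hold with TMM (-0.24, adjusted p = 0.166) or DESeq2 (adjusted p = 0.0569). It was also lost without Med17 auxin replicate 1 or 2, Med17 DMSO replicate 1 or 2, or Med14 DMSO replicate 2 (edgeR adjusted p from 0.0501 to 0.474). NAB3, at 0.22 (SE 0.15, adjusted p = 0.28), was called higher with TMM (0.4, adjusted p = 0.0143). The other 6 genes had log2 differences between -0.36 and 0.1 and were not called.

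In total RNA 1 of the 8 partners was called lower in Med17 DMSO cells, where 5.83% of all genes were, and 1 higher, where 9.69% were. NRD1 averaged 531 ± 67.4 normalized counts in Med17 DMSO cells and 743 ± 70 in Med14 DMSO cells (SD, n = 2 each; -0.49, SE 0.135, edgeR adjusted p = 0.0294). NAB2 was the higher one (0.49, SE 0.122, adjusted p = 0.0185). The NRD1 call was lost without Med17 DMSO replicate 2 (adjusted p = 0.21) or Med14 DMSO replicate 2 (adjusted p = 0.187). The NAB2 call was lost without Med17 DMSO replicate 1 (adjusted p = 0.106) or Med14 DMSO replicate 1 (adjusted p = 0.133). These DMSO libraries also entered the total RNA contrast on which the set was chosen, so the calls are not independent of that choice.

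The 9 genes fell into a high and a low tier when levels were set per length, as the authors' normalized count per kb. Without auxin, newly synthesized RNA of NAB2, NAB3, NRD1 and HRP1 lay between 1912 ± 205 and 3898 ± 358 per kb in Med17 DMSO cells. In Med14 DMSO cells these 4 lay between 2586 ± 824 and 4509 ± 1155 (SD, n = 2 each), with HRP1 the highest. The other 5 genes lay between 736 ± 80.2 and 1038 ± 58.6 in Med17 DMSO cells and between 810 ± 44.9 and 1223 ± 78.7 in Med14 DMSO cells. The same 4 genes led in total RNA, at 307 ± 39 (NRD1) to 800 ± 78.4 (NAB2) per kb in Med17 DMSO cells and 430 ± 40.5 (NRD1) to 896 ± 54.6 (HRP1) in Med14 DMSO cells. The others lay between 135 ± 17.5 and 175 ± 14.2 in Med17 DMSO cells and between 114 ± 0.401 and 202 ± 41.2 in Med14 DMSO cells. Several neighbours in this order did not differ beyond their spread, such as NRD1 and HRP1 in newly synthesized RNA of Med17 DMSO cells (2010 ± 176 and 1912 ± 205).

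With auxin the order of total RNA changed. HRP1 led by a wide margin, at 2865 ± 356 per kb in Med17 auxin cells and 2612 ± 88.4 in Med14 auxin cells. NRD1 came next, at 773 ± 91.5 and 642 ± 37.6 in Med17 auxin and Med14 auxin cells. NAB2, which had been first or second, was the fourth, at 219 ± 10.5 in Med17 auxin cells and 304 ± 32.1 in Med14 auxin cells. CLP1 was the lowest, at 39.1 ± 5.29 and 62.2 ± 11.6 per kb.

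**Figure D3:**
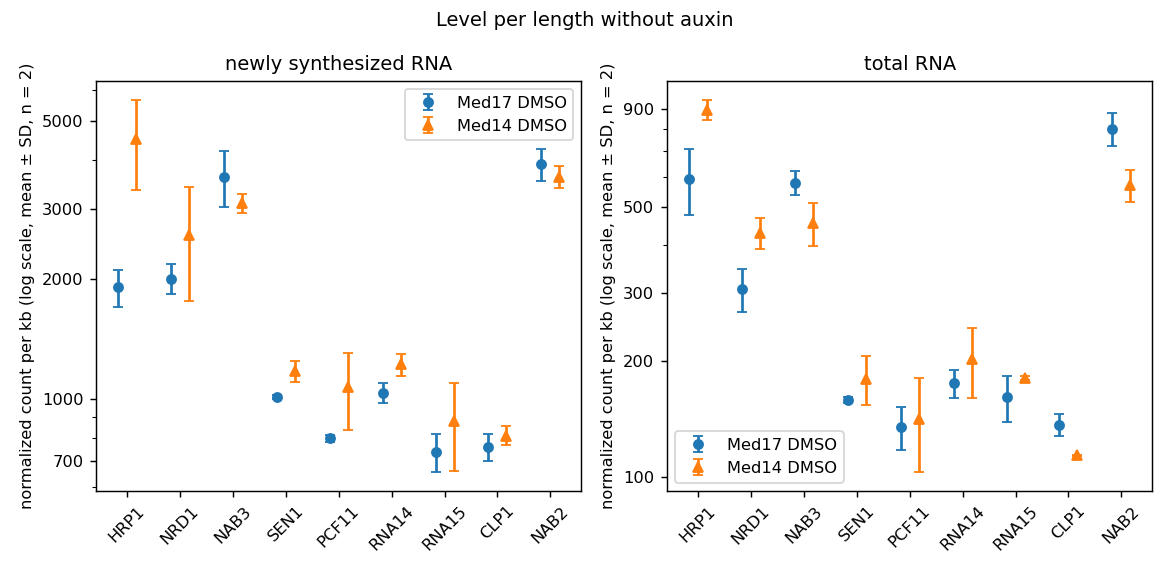
Normalized count per kb of coding length (vertical axis, log scale, mean ± SD, n = 2) of the 9 genes without auxin, for newly synthesized RNA (left) and total RNA (right), in Med17 DMSO (circles) and Med14 DMSO (triangles) cells. HRP1, NRD1, NAB3 and NAB2 form the upper tier, and HRP1 shows 1912 per kb in Med17 DMSO and 4509 in Med14 DMSO newly synthesized RNA.

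A further 35 genes of the same machinery, in 4 lists, were read against these 9. The lists were CPF (15 genes), the exosome and TRAMP list (9 genes), the RAT1 group (4 genes), and poly(A) RNA-binding and export proteins (7 genes). The exosome and TRAMP list held genes of the nuclear exosome, its cofactors and the TRAMP complex, which trim and degrade nuclear RNA. The RAT1 group is set around the 5′ to 3′ exonuclease that acts in termination. In newly synthesized RNA 35 of 35 were called lower in the Med17 strain (median -2.24) and 34 of 35 in the Med14 strain (median -1.44), beside 95% and 94.2% of all genes. TMM called 5 lower and 20 higher with Med17 depletion, and 4 lower and 23 higher in the Med14 strain. In total RNA 30 were called lower and 0 higher in the Med17 strain (median -1), beside 87.4% and 2.42% of all genes. Without Med17 DMSO replicate 1, 1 was called higher. In the Med14 strain 23 were called lower and 1 higher (median -0.42), beside 75.1% and 1.62%. TMM gave 7 lower and 16 higher with Med17 depletion, and 2 lower and 16 higher with Med14 depletion. In total RNA of the Med17 strain none of the 35 log2 fold changes reached those of HRP1 and NRD1. In the Med14 strain the highest of them, 0.9 for YGR156W, lay between NRD1 (0.58) and HRP1 (1.54). HRP1 was chosen on these total RNA changes, so its place above the lists is a description only.

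In CPF, 15 of 15 genes were called lower in newly synthesized RNA of the Med17 strain (median -2.23, but 0.45 with TMM). In the Med14 strain 14 of 15 were (median -1.23, but 0.66 with TMM). These counts stand beside 95% and 94.2% of all genes. In total RNA 13 of 15 were called lower in the Med17 strain (median -1.23, but 0.032 with TMM), beside 87.4% of all genes. In the Med14 strain 9 were called lower, beside 75.1% of all genes, and 1 higher, beside 1.62% (median -0.41, but 0.31 with TMM). The most reduced was YOR179C, a subunit of the APT part of CPF. Its newly synthesized RNA was 26.5 and 20 normalized counts in Med17 auxin libraries, against 477 and 382 in Med17 DMSO libraries (log2 fold change -4.21, SE 0.234, edgeR adjusted p = 6.58e-12), and still -1.53 with TMM. Med14 libraries had 75.9 and 76.2 with auxin, against 443 and 450 with DMSO (-2.55, SE 0.204, adjusted p = 1.67e-09), and -0.66 with TMM. YOR179C has YSH1 as a paralog, so reads of the pair may not be fully separate. GLC7, the catalytic subunit of type 1 protein phosphatase, which is also a CPF subunit, fell in the Med17 and Med14 strains (log2 fold changes -3.23 and -2.09, edgeR adjusted p = 2.58e-12 and 6.13e-10), and its TMM values were -0.54 and -0.2.

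On the authors' scale a single gene of the 35, YGR156W, was called higher in total RNA. It is described as an essential CPF component that acts at snoRNA and mRNA 3′ ends. YGR156W total RNA was 210 and 253 normalized counts in Med14 auxin libraries, against 120 and 128 in Med14 DMSO libraries (0.9, SE 0.156, edgeR adjusted p = 0.000335, 1.62 with TMM). In the Med17 strain it was 154 and 147 with auxin, against 143 and 125 with DMSO (0.18, adjusted p = 0.269, but 1.44 with TMM). Its newly synthesized RNA was 813 and 899 in Med14 auxin libraries, against 715 and 970 in Med14 DMSO libraries. This was the 1 newly synthesized value of the 35 not called (0.019, edgeR adjusted p = 0.914, but 1.91 with TMM). In the Med17 strain newly synthesized YGR156W RNA was 414 and 363 with auxin, against 769 and 689 with DMSO (-0.91, adjusted p = 8.25e-05, but 1.77 with TMM).

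For the exosome and TRAMP list, 9 of 9 genes were called lower in newly synthesized RNA of both strains, beside 95% and 94.2% of all genes. The medians were -1.72 and -1.25 in the Med17 and Med14 strains, but 0.97 and 0.64 with TMM. In total RNA 7 of 9 were called lower in each strain (medians -0.7 and -0.45, but 0.55 and 0.27 with TMM), beside 87.4% and 75.1% of all genes, and 4 of 9 in the Med14 strain without Med14 auxin replicate 1 or Med14 DMSO replicate 2. The exosome-associated RNA-binding protein gene YNR024W was at -3.56 (SE 0.304, edgeR adjusted p = 1.74e-09, -0.88 with TMM) in newly synthesized RNA of the Med17 strain. Its Med17 auxin libraries held only 29 and 35 raw counts. In the Med14 strain YNR024W was at -0.95 (SE 0.248, adjusted p = 0.00145, but 0.94 with TMM), a smaller fall than that of the median gene. LRP1, which regulates the exosome exonuclease Rrp6, was at -2.33 in newly synthesized RNA of the Med17 strain (SE 0.196, adjusted p = 1.48e-09, but 0.36 with TMM). MTR4, the helicase of TRAMP, was at -1.73 in the Med14 strain (SE 0.15, adjusted p = 4.46e-09, but 0.17 with TMM).

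The RAT1 group had 4 of 4 genes called lower in newly synthesized RNA of both strains, beside 95% and 94.2% of all genes. The medians were -2.38 and -1.48 in the Med17 and Med14 strains, but 0.3 and 0.42 with TMM. In total RNA 4 of 4 were called lower in the Med17 strain and 2 of 4 in the Med14 strain (medians -0.9 and -0.38, but 0.36 and 0.34 with TMM), beside 87.4% and 75.1% of all genes. RAT1 itself, the exonuclease, was at -1.5 (SE 0.138, edgeR adjusted p = 8.41e-09, but 0.39 with TMM) in newly synthesized RNA of the Med14 strain. ESS1, a prolyl isomerase that acts on the polymerase C-terminal domain, was at -2.42 and -1.54 in the Med17 and Med14 strains (adjusted p = 1.13e-09 and 4.22e-07, but 0.26 and 0.35 with TMM).

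Poly(A) RNA-binding and export proteins had the lowest medians of the 4 lists in newly synthesized RNA. There 7 of 7 were called lower in both strains, beside 95% and 94.2% of all genes. The medians of -2.88 and -2.16 in the Med17 and Med14 strains stayed below 0 with TMM (-0.19 and -0.27). In total RNA 6 of 7 were called lower in the Med17 strain and 5 of 7 in the Med14 strain, beside 87.4% and 75.1% of all genes, and here the medians (-0.99 and -0.46) turned positive with TMM (0.28 and 0.26). YRA1, an export adaptor, had 1660 and 1606 normalized counts of newly synthesized RNA in Med14 auxin libraries, against 10022 and 10668 in Med14 DMSO libraries (-2.66, SE 0.146, edgeR adjusted p = 3.23e-11, -0.77 with TMM). It had 1921 and 1688 in Med17 auxin libraries, against 8827 and 8243 in Med17 DMSO libraries (-2.24, SE 0.144, adjusted p = 3.33e-11, but 0.44 with TMM). YRA1 total RNA was 518 and 473 in Med17 auxin libraries, against 1983 and 1882 in Med17 DMSO libraries (-1.96, SE 0.154, adjusted p = 3.36e-07, -0.7 with TMM). It was 554 and 384 in Med14 auxin libraries, against 1730 and 1757 in Med14 DMSO libraries (-1.89, SE 0.155, adjusted p = 9.4e-06, -1.18 with TMM). HRB1, another poly(A) RNA-binding protein, was at -1.97 and -1.07 in total RNA of the Med17 and Med14 strains (adjusted p = 2.62e-07 and 6.94e-05, -0.71 and -0.35 with TMM).

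**Figure D4:**
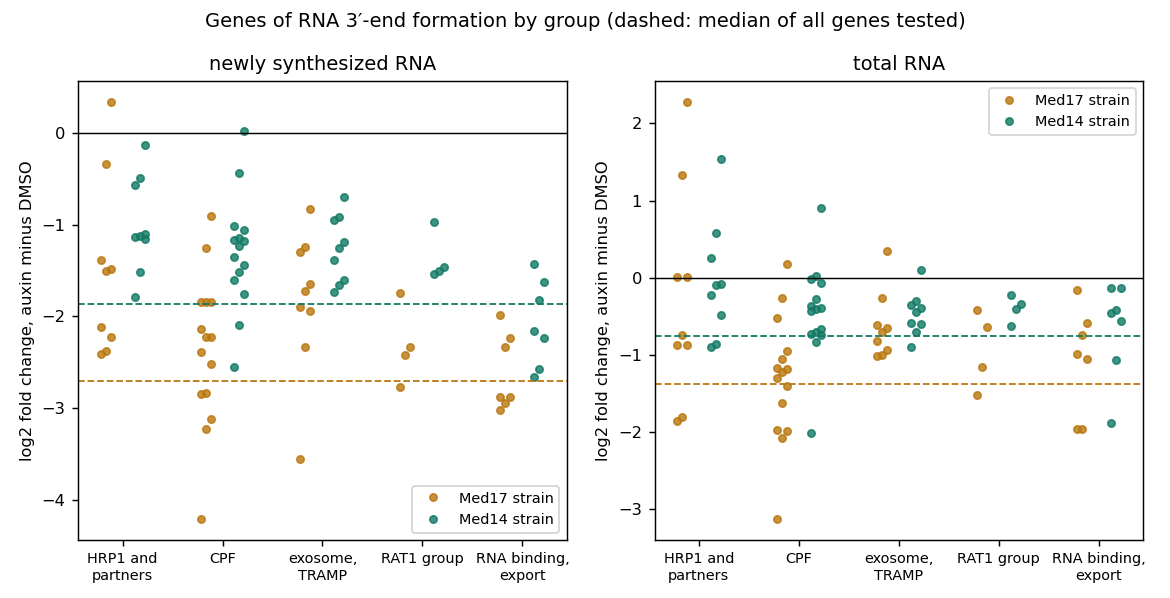
Log2 fold changes, auxin minus DMSO, on the authors' scale (vertical axis) of the 9 genes and of the 35 other genes in 4 lists, for newly synthesized RNA (left) and total RNA (right). Each point is a gene, colours are strains, and dashed lines are the medians of all genes tested in each strain. HRP1 at 2.28 and NRD1 at 1.33 in the Med17 strain are the highest points of total RNA there, and HRP1 was chosen on these changes. With TMM most newly synthesized values of CPF, exosome and RAT1 group genes are above 0.

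The genes on either side of HRP1 were lower with auxin on the authors' scale. YOL124C, the catalytic subunit of a tRNA methyltransferase, lies at chromosome XV, 85456 to 86757, and runs the other way, 1086 bases from HRP1. Its newly synthesized RNA was 438 and 405 normalized counts in Med17 auxin libraries, against 1298 and 849 in Med17 DMSO libraries (-1.35, SE 0.178, edgeR adjusted p = 8.49e-07, but 1.35 with TMM). It was 910 and 862 in Med14 auxin libraries, against 2817 and 2378 in Med14 DMSO libraries (-1.55, SE 0.174, adjusted p = 1.08e-07, but 0.34 with TMM). YOL124C total RNA was also lower, at -0.55 with Med17 depletion (adjusted p = 0.0188, but 0.72 with TMM) and -0.67 in the Med14 strain (adjusted p = 0.00669, but 0.04 with TMM).

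Both neighbours shared the direction of the HRP1 difference between the strains in DMSO. Newly synthesized YOL124C RNA was at -1.28 there (SE 0.175, edgeR adjusted p = 5.26e-05, -1.11 with TMM). YOL124C total RNA was at -0.82 (SE 0.189, adjusted p = 0.0119), where HRP1 had -1.24 and -0.6. SMF1 (YOL122C), a metal ion transporter gene at 89692 to 91419, faces HRP1 tail to tail across 243 bases. It fell in newly synthesized RNA of the Med17 and Med14 strains (log2 fold changes -3.99 and -2.98, edgeR adjusted p = 1.75e-12 and 4.83e-11, -1.31 and -1.09 with TMM). In total RNA it fell as well (-2.08 and -1.86, adjusted p = 4.22e-07 and 1.06e-05, -0.82 and -1.14 with TMM). Between the strains in DMSO, newly synthesized SMF1 RNA was at -0.69 (edgeR adjusted p = 0.00327, -0.52 with TMM). SMF1 total RNA was at -0.66 there (adjusted p = 0.0104, -0.74 with TMM). No gene of the tables overlapped the coordinates of any of the 9 genes. How strand was treated in counting is not given in these sources, so antisense reads could not be set apart.

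The genes whose pattern was most like that of HRP1 were looked for among 4742 genes by the root mean square difference over the 8 group means of log2 normalized counts, each kind of RNA centred on its own mean. The nearest was YBR099C, at 0.277, a dubious reading frame that lies wholly within MMS4. Without the strand setting, its reads cannot be told apart from those of MMS4. SPO21 (YOL091W), a component of the meiotic spindle pole body, followed at 0.346, and YKR005C, of unknown function, at 0.412. NRD1 was the 4th, at 0.414, and YNL008C, a subunit of the Asi ubiquitin ligase of the inner nuclear membrane, the 5th, at 0.415.

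The first to the third of these had low counts. SPO21 total RNA was 114 and 86.9 normalized counts in Med17 auxin libraries, against 19.8 and 16.8 in Med17 DMSO libraries, and 85.3 and 150 in Med14 auxin libraries, against 28.9 and 33.2 in Med14 DMSO libraries. YNL008C total RNA was 814 and 793 in Med17 auxin libraries, against 223 and 195 in Med17 DMSO libraries, and 389 and 478 in Med14 auxin libraries, against 228 and 251 in Med14 DMSO libraries. In both genes the auxin libraries lay above the DMSO libraries of their strain. The other partners of HRP1 ranked from 44th (RNA14, 0.785) and 84th (SEN1, 0.871) to 2528th (CLP1, 1.39) and 2920th (NAB2, 1.44). PCF11, NAB3 and RNA15 ranked 283rd, 553rd and 601st. The likeness is a description over 8 means that share libraries.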

How the data were processed

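RNA-seq libraries of newly synthesized and total RNA were made with a stranded kit after ribosomal RNA removal, per the labels' protocols. Demultiplexing used bcl2fastq 2.17.1.14, and sacCer3 is the build named, per the submitters' processing notes. No aligner, counting program, strand setting or annotation version is given in these sources. In the deposited tables, raw read counts are given per gene, per the file headers. They also hold the authors' normalized counts, a signal in which each library's raw counts are multiplied by its own constant, and the same per kb of median transcript length, which for the 9 genes is the coding length. Where these constants come from is not stated in these sources. Columns were matched to samples by title.

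The two-sided quasi-likelihood test of edgeR 4.0.16 (R 4.3.3) was run on raw counts, with newly synthesized and total RNA fitted apart (8 libraries each), the group as the factor, the authors' constants as scaling factors and filterByExpr. A gene was called where its p, adjusted by Benjamini-Hochberg over all genes tested, was under 0.05. Alternatives were TMM, DESeq2 1.42.0, no filter, leaving out each library, and the replicate number as a block. Simulated data with 200 changed genes were used to check the fit: 99% of 200 changes of 1 log2 unit were recovered among 5988 genes of newly synthesized RNA (Med14 auxin), and 94% among 5550 of total RNA. Of the calls made there, 1.98% and 6.93% were false, the second above the nominal rate. The simulation gave every gene the same dispersion and left most genes unchanged, unlike these data, so its rates need not hold here. An exact test of 2 against 2 libraries has 0.333 as its smallest p, so no single value was tested alone. Libraries of a group differed beyond counting noise, and precision rests on 2 replicates.

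The 9 genes and the lists were chosen with earlier results of these data known. Named were all 9 genes, in each list up to 2 lower and 2 higher called genes of largest change per auxin contrast (the text gives part of these), the neighbours of HRP1, the 5 genes most like it (mean raw count of at least 50, pseudocount 1) and the strain markers. Symbols come from the files or, for NRD1, PCF11, RNA14, RNA15, CLP1 and NAB2, from the list of the 9 genes. Strand was read from the last letter of the systematic name. No sequences of these genes were used here.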

Additional observations from a re-analysis of the deposited data

Results flagged for a closer look

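Of the 9 genes, 6 had a change with auxin in newly synthesized RNA that differed between the Med17 and Med14 strains by a test of the difference itself (edgeR quasi-likelihood, 2 libraries per group). HRP1 differed by 0.82 on the log2 scale, RNA15 by -1.09, NAB3 by -0.99, CLP1 by -0.87, RNA14 by -0.81 and NAB2 by -0.62. TMM called HRP1 (1.61) and none of the other 5, which were at -0.3 (RNA15), -0.2 (NAB3), -0.079 (CLP1), -0.022 (RNA14) and 0.16 (NAB2, sign turned). The NAB2 call was also lost without Med17 auxin replicate 2, Med17 DMSO replicate 1 or Med14 DMSO replicate 1. A negative value means a lower change in the Med17 strain than in the Med14 strain. Newly synthesized HRP1 RNA was lower in the Med17 strain than in the Med14 strain both with DMSO and with auxin. HRP1 was the 1 gene of the 6 with a positive difference, and the 5 of 9 with a negative one stand beside 59.6% of all genes, so they do not set these genes apart. Med14 DMSO replicate 2 held the highest newly synthesized HRP1 value, 8548 normalized counts beside 5927 in replicate 1. Without it the HRP1 call was lost, with a difference of 0.54. Its source label, like that of Med14 auxin replicate 2, carries an added (2) that the other libraries lack.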

How the results depend on the processing

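TMM scaling moved the all-gene median of newly synthesized RNA to -0.03 (Med17 auxin minus DMSO) and 0.034 (Med14), and of total RNA to -0.12 and -0.042. With it, genes of the 9 called lower and higher in newly synthesized RNA numbered 0 and 6 (Med17), 0 and 8 (Med14), 0 and 2 for the difference of the changes, and 1 and 1 between the strains in DMSO. The 35 other genes gave 5 and 20 (Med17) and 4 and 23 (Med14) in newly synthesized RNA, and 7 and 16 and 2 and 16 in total RNA. HRP1 moved to 3.02 (Med17) and 1.41 (Med14, sign turned) in newly synthesized RNA, and to 3.55 and 2.26 in total RNA. In newly synthesized RNA the sign also turned with TMM in the Med17 strain for NRD1 (2.33), NAB3 (0.56), SEN1 (1.18), PCF11 (1.2), RNA14 (1.3), RNA15 (0.47), CLP1 (0.3) and NAB2 (0.26). In the Med14 strain it turned for NRD1 (1.76), NAB3 (0.76), SEN1 (0.73), PCF11 (0.8), RNA14 (1.32), RNA15 (0.77), CLP1 (0.38) and NAB2 (0.1). It turned for the difference in NRD1 (0.57), SEN1 (0.45), PCF11 (0.4) and NAB2 (0.16), and between the strains in DMSO for CLP1 (0.083). In total RNA it turned for NAB3 (0.4), PCF11 (0.39) and RNA15 (0.52) on the Med17 side, and for NAB3 (0.63), SEN1 (0.63), PCF11 (0.5) and RNA15 (0.23) in the Med14 strain. For the difference in total RNA the sign turned for RNA14 (0.28) and RNA15 (0.3). TMM assumes that most genes keep their level, and which scaling is nearer to the cells was not tested.

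DESeq2 left 1 of the 9 called lower between the strains in DMSO in newly synthesized RNA, and moved no other count by over 1.5 times. Testing without a filter changed no call of the 9 genes and no count of calls by over 1.5 times. Same-numbered auxin and DMSO libraries deviated together (correlation 0.127 to 0.431), while the DMSO libraries of the strains deviated in opposite directions (-0.254 in newly synthesized and -0.361 in total RNA), and 2 numbers cannot show a pairing. With the replicate block, 1 of the 9 was called lower between the strains in DMSO (PCF11 adjusted p = 0.051), and NRD1 was called lower in newly synthesized RNA of the Med17 strain (-0.37, adjusted p = 0.0241). The replicate block with the Med17 numbers crossed, added after the data were seen, called 2 partners higher in total RNA in DMSO.

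Leaving out 1 library at a time gave 7 to 8 of the 9 lower and 0 to 1 higher for Med17 in newly synthesized RNA, and 7 to 8 lower for Med14. It gave 4 to 6 lower and 0 to 1 higher for the difference, and 1 to 2 lower in DMSO. Among the partners in total RNA in DMSO it gave 0 to 1 lower and 0 to 1 higher, and among the 35 other genes 28 to 31 lower and 0 to 1 higher in total RNA of the Med17 strain. HRP1 ranged from 0.23 to 0.45 (Med17), -0.73 to -0.2 (Med14), 0.54 to 1.06 (difference) and -1.48 to -0.95 (DMSO) in newly synthesized RNA, and from 2.09 to 2.49, 1.48 to 1.61 and -0.81 to -0.41 in total RNA (Med17, Med14, DMSO). In newly synthesized RNA the sign turned for NRD1 (Med14 -0.48 to 0.23, difference -0.58 to 0.14, DMSO -0.66 to 0.004) and RNA15 (DMSO -0.49 to 0.024). In total RNA it turned for SEN1 (-0.12 to 0.12) and RNA14 (-0.15 to 0.15) on the Med17 side, and for NAB3 (-0.21 to 0.048), SEN1 (-0.24 to 0.057) and PCF11 (-0.48 to 0.087) in the Med14 strain. It turned in DMSO for PCF11 (-0.34 to 0.23) and RNA14 (-0.39 to 0.028). The causes of these moves were not tested. Depth was lowest for CLP1 and RNA15, with 52 to 284 and 72 to 193 raw counts in total RNA.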
